A study of Mus musculus with 6 samples.

Results

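The 34 genes described here encode the chaperones of the endoplasmic reticulum (ER) and the machinery of the unfolded protein response. They were measured in bulk mouse liver after delivery of Cre recombinase by an adeno-associated virus. The members were given as a fixed set of gene symbols, and all 34 had a row among the 35977 genes of the deposited count table. All 34 also passed the filter on low counts, which left 14374 genes for testing. Both groups of mice had received AAV9-Tnnt2-Cre, a serotype 9 vector whose Cre is driven by the promoter of Tnnt2, the gene of cardiac troponin T. The Cre-miR122 libraries, replicates 1, 2 and 4, came from livers given the version that also carries miR-122 target sites, meant to let this hepatocyte microRNA silence the transcript. The Cre libraries, replicates 10, 11 and 12, came from livers given the vector without those sites. The labels give no strain, genotype, age, dose or time after injection, and do not say whether each library came from its own animal.

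Secreted and membrane proteins enter the ER through a translocon, are glycosylated there and fold with the help of chaperones and disulfide isomerases. Hepatocytes secrete most of the plasma proteins and therefore depend on this machinery. When unfolded proteins build up, the membrane sensors IRE1 (gene Ern1), PERK (gene Eif2ak3) and ATF6 start the unfolded protein response. IRE1 splices the mRNA of the transcription factor XBP1, PERK slows translation and favours ATF4, and ATF6 is cut by proteases in the Golgi to release a transcription factor. XBP1 and ATF6 raise chaperone and degradation genes, many of which carry an ER stress response element in the promoter.

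That element gives the shared letters of these genes, and it was chosen for display with the group values below already known. It stands, its second form included, in 8 of the 12 genes that lay lower in every Cre-miR122 library than in any Cre library. It also stands in Canx, Dnajc3 and Herpud1, whose groups overlapped. Promoter windows of 250 bases before to 50 bases after the start site, from RefSeq on GRCm38.p6, were found for 29 of the 34 genes. Hyou1 and Manf, both among those 12, and Atf6, Sec61a1 and Derl1 had no entry. For some genes the start site used was not the first base of the counted gene. The windows of Derl3 and Herpud1 lie inside the counted gene, and that of P4hb lies wholly before it. Derl2 had a second window (chr11:71019254-71019553), which also lies inside the counted gene. The windows were searched on both strands for exact matches to 3 motifs. These were the ER stress response element (ERSE, CCAAT, then 9 bases of any kind, then CCACG), its second form (ERSE-II, ATTGG, then 1 base of any kind, then CCACG) and the unfolded protein response element (UPRE, TGACGTGG). The matches in these genes did not overlap each other. An exact ERSE stood in the promoter of 9 of the 29 genes, against 0.137% of all 27025 genes with a window. ERSE-II stood in 2 of the 29, against 0.0444% of all such genes, and UPRE in 0 of the 29, against 0.714%. Since genes of this response are known for carrying the element, these shares describe the set and test nothing. A match describes the letters only and was not tested as a binding site. The promoter of Hspa5, which encodes the chief Hsp70 chaperone of the ER (BiP), lies at chr2:34771840-34772139 on the plus strand, with the 2 arms of its ERSE in capitals:
Hspa5: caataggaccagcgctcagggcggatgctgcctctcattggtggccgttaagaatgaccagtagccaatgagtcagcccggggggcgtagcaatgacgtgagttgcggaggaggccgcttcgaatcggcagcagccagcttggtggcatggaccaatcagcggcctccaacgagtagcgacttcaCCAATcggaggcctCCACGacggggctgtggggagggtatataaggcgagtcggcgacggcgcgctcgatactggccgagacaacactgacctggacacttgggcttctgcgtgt

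The matched elements of the other genes are set out below in the direction that reads CCAAT or ATTGG first, with the arms again in capitals. Hsp90b1 held 2 of them. Those of Calr, Derl3 and Creld2 and the second one of Hsp90b1 lay on the strand opposite to the gene.
Hsp90b1: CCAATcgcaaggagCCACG
Hsp90b1, second: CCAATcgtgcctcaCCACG
Calr: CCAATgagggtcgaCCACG
Canx: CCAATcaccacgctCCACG
Pdia6: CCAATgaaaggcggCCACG
Dnajc3: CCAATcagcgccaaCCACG
Creld2: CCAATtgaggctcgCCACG
Syvn1: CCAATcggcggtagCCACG
Derl3: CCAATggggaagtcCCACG
Herpud1: ATTGGgCCACG
Dnajb11: ATTGGcCCACG

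**Figure D1:**
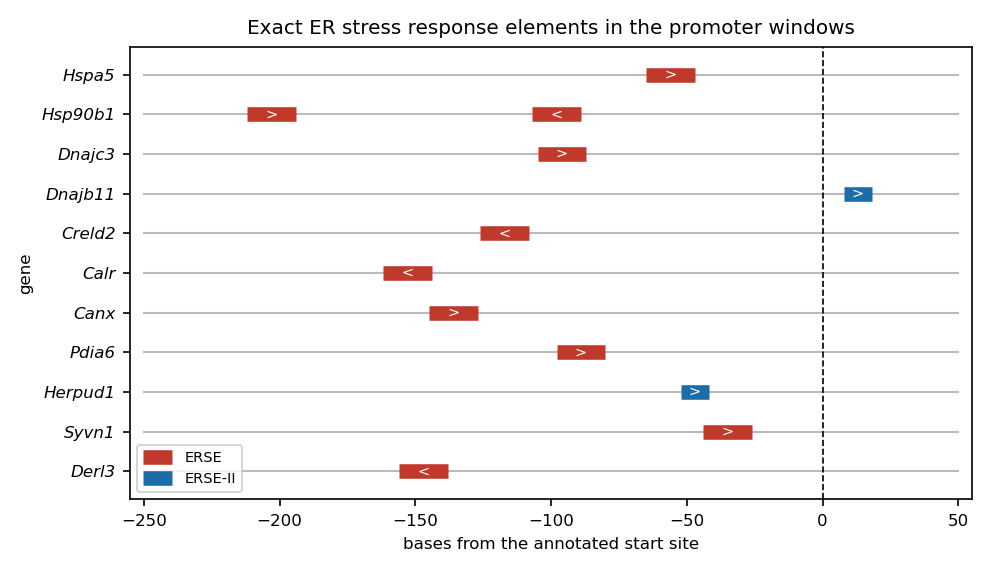
Position of each exact ERSE (red) and ERSE-II (blue) in the promoter windows of the 11 genes that held one, in bases from the annotated start site (dashed line). Arrowheads give the strand relative to the gene. The element of Hspa5 runs from -65 to -47, and that of Dnajb11 lies after the start site, at 8 to 18.

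Total counts ran from 20412016 to 20817837 in the Cre-miR122 libraries and from 20340994 to 20518877 in the Cre libraries. The Cre transcript, which checks the labels, had 12, 16 and 10 counts in the Cre-miR122 libraries and 61, 50 and 37 counts in the Cre libraries. Cre replicate 10 was the library with Y-linked RNA (1676 counts of Ddx3y, against at most 1 in the other libraries). It had 5 counts of Xist, against 15778 to 22413 in the other libraries. The labels give no sex, and no Cre-miR122 library had this pattern, so it was not balanced between the groups. Cre replicate 11 stood apart in many genes: it was the highest library for 24.3% and the lowest for 23.9% of all genes tested. Liver identity was checked with 10 hepatocyte markers, of which 9 had a row. Their summed level was 146866 to 149488 CPM (counts scaled to the size of the library) with Cre-miR122 and 127200 to 152480 CPM with Cre, lowest in Cre replicate 11.

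Plasma cells have a large ER and were looked for with 8 markers. Several were near 0, with 0 counts of Tnfrsf17 in each library, 2 to 12 counts of Jchain with Cre-miR122 and 9 to 16 with Cre, and 8 to 17 counts of Mzb1 with Cre-miR122 and 7 to 16 with Cre. Prdm1 had 9 to 16 counts with Cre-miR122 and 9 in each Cre library, and Irf4 had 14, 23 and 16 counts with Cre-miR122 and 17, 25 and 27 with Cre. Pou2af1 had 38, 26 and 30 counts with Cre-miR122 and 36, 69 and 45 with Cre, highest in Cre replicate 11. Of the 8 markers, Sdc1 and Txndc5 made up nearly all of the summed level. That sum was 406 to 460 CPM with Cre-miR122 and 398 to 470 CPM with Cre, lowest in Cre replicate 11. Pancreatic acinar markers, of another secretory cell, summed to 1.16 to 1.90 CPM with Cre-miR122 and 0.559 to 1.73 CPM with Cre, with Pnlip at 0. Cre replicate 11 was the highest library for the markers of 4 other cell types, with all 8 listed genes measured for each, or 7 of 8 for T and NK cells. B cell markers summed to 15.2 to 19.3 CPM with Cre-miR122 and 25.3 to 31.6 CPM with Cre. Kupffer cell markers summed to 430 to 570 CPM with Cre-miR122 and 515 to 629 CPM with Cre. Neutrophil markers summed to 16.2 to 17.5 CPM with Cre-miR122 and 18.7 to 23.96 CPM with Cre, and T and NK cell markers to 7.78 to 8.37 CPM with Cre-miR122 and 7.93 to 11.7 CPM with Cre. Cre replicate 11 was the lowest library for 2 others, each with all 8 genes measured. Endothelial markers summed to 279 to 310 CPM with Cre-miR122 and 267 to 346 CPM with Cre, and stellate cell markers to 771 to 867 CPM with Cre-miR122 and 679 to 906 CPM with Cre. Erythroid markers summed to 365 to 502 CPM with Cre-miR122. With Cre they ran from 222 CPM in replicate 10 to 603 CPM in replicate 12. Cholangiocyte markers summed to 63.0 to 77.3 CPM with Cre-miR122 and 62.1 to 73.8 CPM with Cre. The part of these cells in the values that follow was not tested, and in bulk liver fewer cells of a type and less RNA per cell cannot be told apart.

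No gene of the set passed the test. The edgeR quasi-likelihood test with Benjamini-Hochberg adjustment over all 14374 genes called 0 of the 34 members, where it called 0% of all genes, and the smallest adjusted p of a member was 0.816. DESeq2 called 0 members too (smallest adjusted p = 0.499), against 0.0209% of all genes, and limma-voom called 0. At an unadjusted edgeR p under 0.05, 10 members were lower with Cre-miR122, or 29.4%, against 2.65% of all genes. On the higher side 1 member, or 2.94%, stood against 2.76% of all genes. The members share libraries and were not treated as independent observations. Both directions together gave 11 members, or 32.4%, against 5.41% of all genes. The count was 4, or 11.8%, in each of 3 settings that left out 1 library, and the share of all genes differed between them. It was 7.79% with Cre-miR122 replicate 1 left out, 2.90% with Cre-miR122 replicate 4 left out and 3.22% with Cre replicate 11 left out. With Cre replicate 12 left out the count was 14, or 41.2%, against 10.5% of all genes.

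All 3 Cre-miR122 libraries lay below all 3 Cre libraries for 12 members, or 35.3%, against 5.45% of all genes. They lay above for 2 members, or 5.88%, against 5.69% of all genes, and the groups overlapped for the other 20. An exact permutation test of 3 libraries against 3 cannot give a two-sided p under 0.1. The log2 fold change, taken as Cre-miR122 minus Cre, was below 0 for 24 of 34 members, or 70.6%, against 50.6% of all genes, and for 26 with upper-quartile scaling and 27 with no scaling. Its median was -0.16 over the members and -0.0029 over all genes.

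Cre replicate 11 was the highest library for 17 of the 34 members, including all 12 whose Cre-miR122 libraries lay below all Cre libraries. The members took 0.616%, 0.637% and 0.633% of all counts in Cre-miR122 replicates 1, 2 and 4, against 0.668%, 0.797% and 0.644% in Cre replicates 10, 11 and 12. The share of Cre replicate 11 is the highest, yet each Cre library lay above each Cre-miR122 library. Without Cre replicate 11 the median log2 fold change of the members was -0.080, and 26 of 34 lay below 0, against 50.3% of all genes. At an unadjusted p under 0.05, 3 members (Hspa5, Hyou1 and Manf) were then lower, against 1.69% of all genes, and 1 (Ern1) higher, against 1.53%. The 12 members stayed below the other 2 Cre libraries, since the library left out was their highest. Without Cre replicate 10, the library with Y-linked RNA, the median was -0.12 and 10 members were lower at an unadjusted p under 0.05, against 2.87% of all genes.

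**Figure D2:**
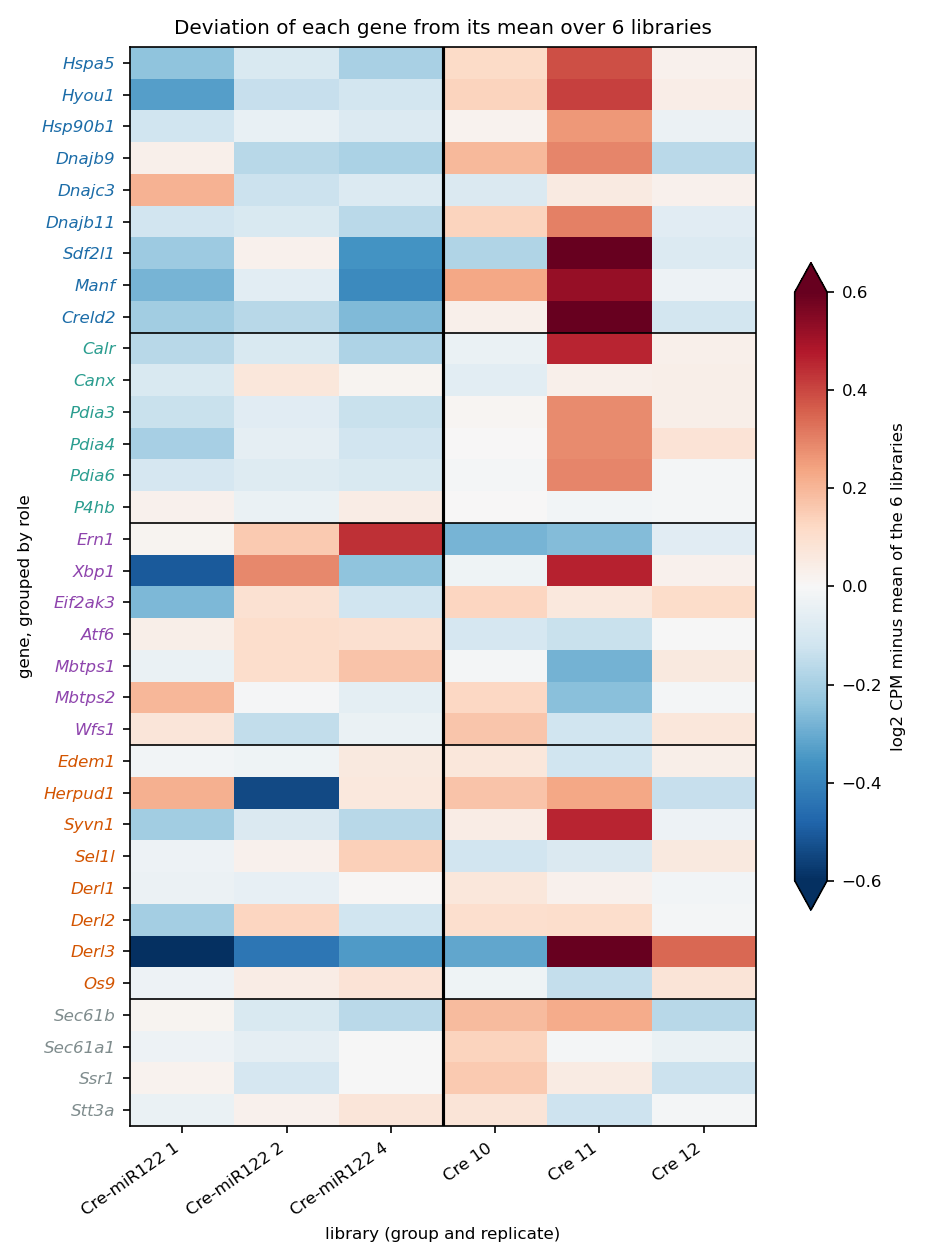
Each row is a gene, grouped by role, and each column a library. Colour gives the log2 CPM of that library minus the mean of the 6 libraries, with values beyond 0.6 at the end colours. The luminal chaperones, at the top, are mostly blue in the 3 Cre-miR122 libraries and red in Cre replicate 11, while the sensors show no such block.

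Luminal chaperones and their cofactors had the lowest median log2 fold change of the 5 roles, at -0.36. Of 9 genes, 8 lay below 0 and 5 were lower at an unadjusted p under 0.05, against 2.65% of all genes. The 5 were 3 when Cre replicate 11 or any 1 Cre-miR122 library was left out. The share of all genes lower was then 1.69% without Cre replicate 11. It was 3.56%, 2.18% and 1.36% without Cre-miR122 replicates 1, 2 and 4. Without Cre replicate 12 the count was 6, against 5.03% of all genes. For 6 of the 9 all Cre-miR122 libraries lay below all Cre libraries, against 5.45% of all genes. The median deviation of the 9 genes from their 6-library mean was -0.21, -0.093 and -0.19 on the log2 scale in Cre-miR122 replicates 1, 2 and 4. It was 0.11, 0.39 and -0.037 in Cre replicates 10, 11 and 12. Cre replicate 12 thus lay closest to the Cre-miR122 libraries, and without Cre replicate 11 the median fold change of the group was -0.16.

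Hspa5 lies on chromosome 2 (34772090 to 34776529, GRCm38). It was at 465, 516 and 482 CPM in Cre-miR122 replicates 1, 2 and 4, against 595, 720 and 560 CPM in Cre replicates 10, 11 and 12. The groups did not overlap, and Cre replicate 11 was the highest library. Hspa5 averaged 488 ± 26.0 CPM with Cre-miR122 and 625 ± 84.1 CPM with Cre (SD, n = 3 each). Its log2 fold change was -0.36 (SE 0.11, 95% interval -0.61 to -0.11, edgeR adjusted p = 0.816), and -0.25 without Cre replicate 11. Hspa5 is widely used as a readout of the response, and its ERSE is printed above.

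Manf encodes a small secreted protein of the ER that binds BiP, and Hyou1 encodes GRP170, a large Hsp70-related protein that exchanges the nucleotide of BiP. Manf was at 49.4, 57.2 and 45.8 CPM with Cre-miR122, against 70.3, 86.1 and 58.6 CPM with Cre. The groups did not overlap but came close, with 57.2 CPM in Cre-miR122 replicate 2 beside 58.6 CPM in Cre replicate 12. The log2 fold change of Manf was -0.50 (SE 0.14, edgeR adjusted p = 0.816), and -0.34 without Cre replicate 11. Hyou1 was at 62.4, 71.3 and 72.6 CPM with Cre-miR122, against 86.0, 104 and 80.7 CPM with Cre. No library of one group reached the other, and the log2 fold change was -0.39 (SE 0.11), or -0.28 without Cre replicate 11. These 2 genes had the smallest unadjusted p of the set, 0.00615 for Manf and 0.00582 for Hyou1.

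Creld2 and Sdf2l1 are small ER proteins that are induced by ER stress, and Sdf2l1 is a partner of BiP cochaperones. Creld2 was at 15.5, 16.005 and 14.9 CPM with Cre-miR122, against 18.3, 29.6 and 16.7 CPM with Cre. Cre replicate 11 stood 1.82-fold above the mean of the other 5 libraries, which lay within 14.9 and 18.3 CPM. For Creld2 the log2 fold change was -0.48 (SE 0.19), and -0.18 without that library. Sdf2l1 was at 9.43, 11.2 and 8.52 CPM with Cre-miR122, against 9.66, 19.3 and 10.4 CPM with Cre. Here the groups overlapped, and the log2 fold change of -0.44 (SE 0.25) was -0.045 without Cre replicate 11.

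Among the J-domain cochaperones of BiP, Dnajb11 (ERdj3) was at 67.7, 69.0 and 65.6 CPM with Cre-miR122, against 80.4, 90.7 and 70.1 CPM with Cre. Its groups did not overlap (log2 fold change -0.25, SE 0.10), and without Cre replicate 11 the value was -0.16. Dnajb9 (ERdj4), an XBP1 target that also restrains IRE1, had a log2 fold change of -0.23 (SE 0.12) with overlapping groups, and of -0.13 without Cre replicate 11. Dnajc3 (P58IPK), a cochaperone that also inhibits PERK, was at 189, 150 and 155 CPM with Cre-miR122, against 154, 170 and 167 CPM with Cre. Its groups overlapped (log2 fold change 0.0069, SE 0.10), with a 95% interval of -0.23 to 0.24. Its promoter holds an exact ERSE. Hsp90b1 encodes GRP94, the Hsp90 of the ER, and had the smallest difference among the non-overlapping genes of this group. It was at 675, 711 and 693 CPM with Cre-miR122 and at 745, 879 and 715 CPM with Cre (-0.17, SE 0.10, and -0.075 without Cre replicate 11).

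**Figure D3:**
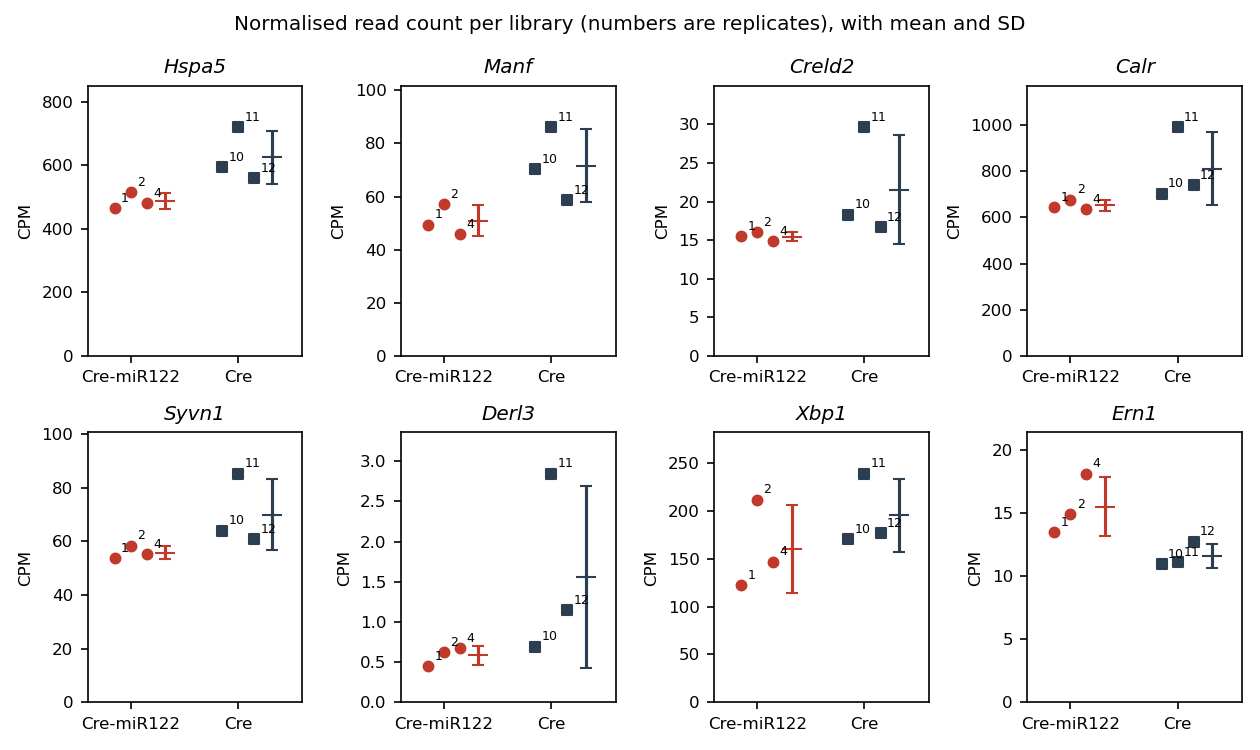
CPM in each library for 8 genes, with the replicate number beside each point and the mean and SD (n = 3) as bars. In the first 6 panels all Cre-miR122 points lie below all Cre points, with Cre replicate 11 highest. For Xbp1 the groups overlap, and for Ern1 all Cre-miR122 points, 13.5 to 18.1 CPM, lie above the Cre points, 10.997 to 12.8 CPM.

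The lectin chaperones and disulfide isomerases had the next lowest median. The median log2 fold change was -0.21, and -0.11 without Cre replicate 11. Of the 6 genes, 5 lay below 0 and 3 were lower at an unadjusted p under 0.05, against 2.65% of all genes. The count was 0 when Cre replicate 11, Cre-miR122 replicate 1 or Cre-miR122 replicate 4 was left out, and 1 when Cre-miR122 replicate 2 was. The shares of all genes in these settings are those given above. Calr encodes calreticulin, the soluble lectin chaperone that holds glycoproteins while they fold. It was at 644, 677 and 635 CPM with Cre-miR122, against 703, 991 and 739 CPM with Cre. The groups did not overlap, but the 2 Cre libraries other than replicate 11 lay close above the Cre-miR122 libraries. For Calr the log2 fold change was -0.32 (SE 0.13), and -0.15 without Cre replicate 11. Canx encodes calnexin, the membrane-bound counterpart of calreticulin. It averaged 306 ± 17.2 CPM with Cre-miR122 and 307 ± 11.8 CPM with Cre (SD, n = 3 each), with a log2 fold change of -0.0032 and a 95% interval of -0.19 to 0.18. Calr and Canx both carry an exact ERSE.

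Pdia3 (ERp57), the isomerase that works with both lectins, was at 370, 386 and 370 CPM with Cre-miR122, against 409, 494 and 416 CPM with Cre. Pdia4 (ERp72) was at 156, 173 and 166 CPM with Cre-miR122, against 179, 218 and 190 CPM with Cre. Pdia6 (P5), which also shuts off IRE1 signalling, was at 200, 203 and 201 CPM with Cre-miR122, against 213, 262 and 213 CPM with Cre. In all 3 the groups did not overlap, and the log2 fold changes were -0.23 (SE 0.096), -0.25 (SE 0.094) and -0.19 (SE 0.098). Without Cre replicate 11 they were -0.14, -0.17 and -0.081. P4hb (PDI itself, also a subunit of the collagen prolyl hydroxylase) had overlapping groups. It averaged 1253 ± 38.2 CPM with Cre-miR122 and 1237 ± 9.13 CPM with Cre, and its coefficient of variation over the 6 libraries was 2.12%, the lowest of the 34 genes. It was also the most abundant member per length of transcript, at 494 CPM per kilobase with Cre-miR122 and 487 CPM per kilobase with Cre.

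The sensors and their partners did not lie on one side. Of 7 genes, 4 lay above 0. Their median log2 fold change was 0.089, and it was -0.0087 without Cre replicate 11. Ern1, the IRE1 gene on chromosome 11 (106397620 to 106487796), was the 1 member higher at an unadjusted p under 0.05. It was at 13.5, 14.9 and 18.1 CPM with Cre-miR122, against 10.997, 11.1 and 12.8 CPM with Cre. All Cre-miR122 libraries lay above all Cre libraries, and Cre replicate 11 lay between the other 2 Cre libraries. The log2 fold change was 0.42 (SE 0.13, 95% interval 0.13 to 0.71, edgeR adjusted p = 0.816), and 0.39 without Cre replicate 11. Over the 6 settings that leave out 1 library it ran from 0.29 to 0.51. The count of sensor genes at that threshold was 0 when Cre-miR122 replicate 4 was left out, 3 (1 higher and 2 lower) when Cre-miR122 replicate 2 was and 2 when Cre replicate 12 was. The share of all genes in either direction was 2.90%, 4.26% and 10.5% in these settings, in that order.

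Atf6, the gene of the Golgi-cleaved sensor, was at 45.3, 47.7 and 47.3 CPM with Cre-miR122, against 41.3, 40.3 and 44.2 CPM with Cre. Its groups did not overlap either, with a log2 fold change of 0.16 (SE 0.078) that was 0.13 without Cre replicate 11. The proteases that cut ATF6 lay above 0 with overlapping groups, Mbtps1 (site-1 protease) at 0.16 (SE 0.11) and Mbtps2 (site-2 protease) at 0.089 (SE 0.14). Without Cre replicate 11, Mbtps1 was at 0.059 and Mbtps2 turned to -0.0087. Eif2ak3, the PERK gene, lay the other way at -0.19 (SE 0.11), with 12.5, 16.1 and 13.9 CPM with Cre-miR122 against 16.5, 15.8 and 16.3 CPM with Cre. Wfs1, an ER membrane protein that restrains ATF6 signalling, had few counts (5.49 ± 0.429 CPM with Cre-miR122 and 5.81 ± 0.589 CPM with Cre) and a log2 fold change of -0.079 (SE 0.14), which was -0.16 without Cre replicate 11.

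Xbp1 was the most variable gene of this group. It was at 122, 212 and 147 CPM with Cre-miR122, against 170, 239 and 176 CPM with Cre. Cre-miR122 replicate 2 lay above 2 of the Cre libraries, and replicate 1 was the lowest of all. The log2 fold change was -0.28 (SE 0.20) and ran from -0.54 to -0.11 when single libraries were left out. Counts per gene do not separate the spliced Xbp1 mRNA, which makes the active factor, from the unspliced one.

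**Figure D4:**
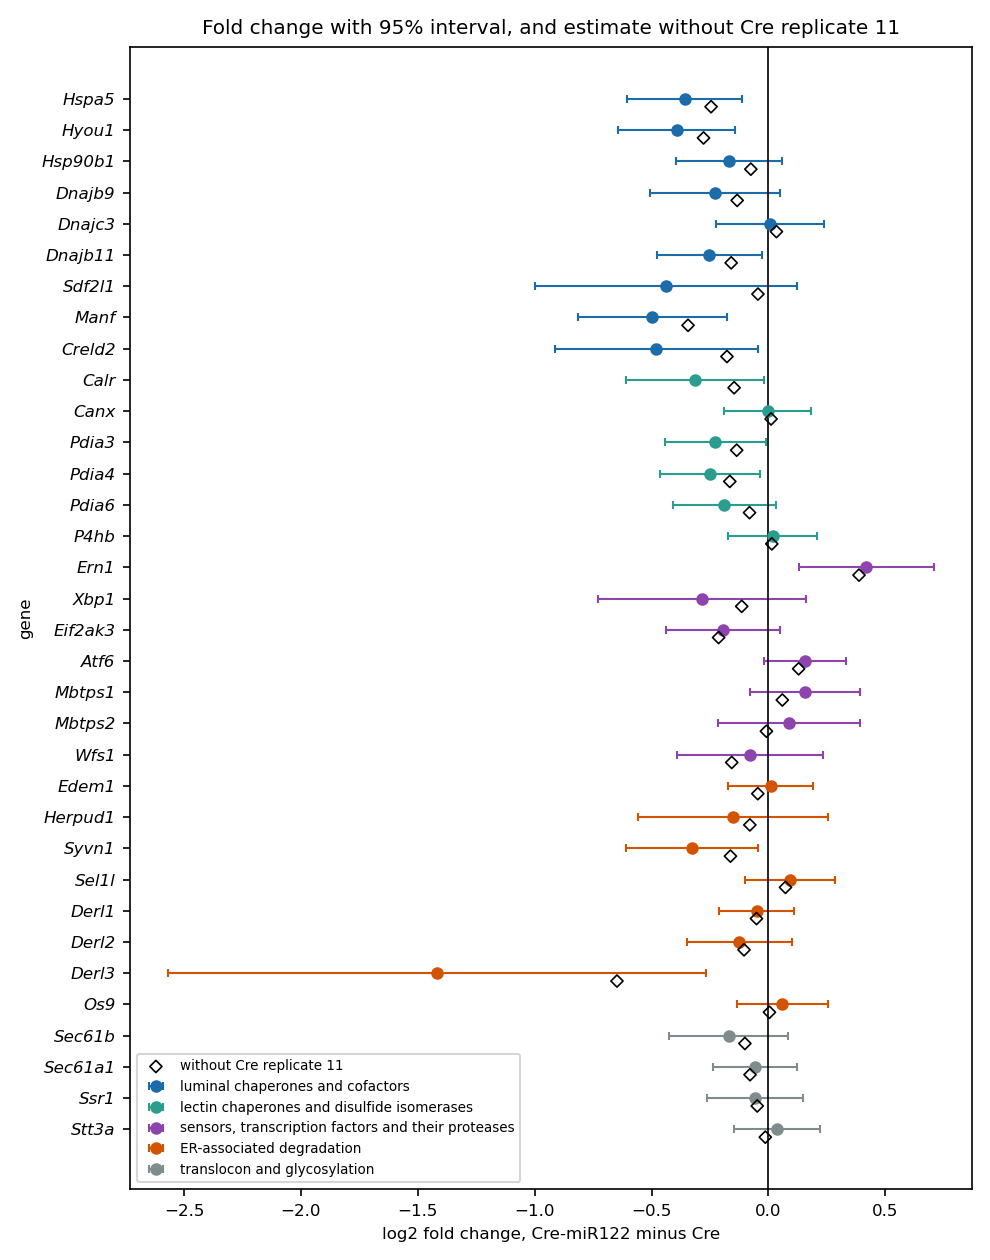
Log2 fold change of each gene, Cre-miR122 minus Cre, with its unadjusted 95% interval from all 6 libraries (filled circles, coloured by role) and the estimate without Cre replicate 11 (open diamonds). The luminal chaperones and isomerases sit mostly left of 0 and their diamonds lie nearer to 0, while Ern1 lies right of 0 with both.

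ER-associated degradation pulls misfolded proteins back to the cytosol for the proteasome. It showed 2 genes whose groups separated downward, against 5.45% of all genes, and 6 that overlapped. Its 8 genes had a median log2 fold change of -0.088, which was -0.0083 when Cre-miR122 replicate 2 was left out and -0.051 when Cre-miR122 replicate 1 was. The 2 were also those lower at an unadjusted p under 0.05, against 2.65% of all genes. That count was 0 when Cre replicate 11 or Cre-miR122 replicate 1 was left out and 1 when Cre-miR122 replicate 4 was. It was 3 when Cre-miR122 replicate 2 was left out. The shares of all genes in these settings are given with the luminal chaperones. Syvn1 encodes HRD1, the ubiquitin ligase of the central complex, and was at 53.7, 58.4 and 55.3 CPM with Cre-miR122, against 64.0, 85.3 and 60.8 CPM with Cre. Its groups did not overlap (log2 fold change -0.33, SE 0.13), and the value was -0.16 without Cre replicate 11. An antisense neighbour, Mrpl49, overlaps 2.43% of the exon bases of Syvn1, and reads there cannot be assigned without strand. Sel1l, the partner that stabilises HRD1, had overlapping groups, at 146 ± 9.05 CPM with Cre-miR122 and 137 ± 8.93 CPM with Cre (0.093, SE 0.085).

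Derl3, a derlin of the retrotranslocation channel that is strongly induced by ER stress, had the largest log2 fold change of the set on the fewest counts. It had 9, 13 and 14 counts in Cre-miR122 replicates 1, 2 and 4, against 14, 61 and 23 counts in Cre replicates 10, 11 and 12. The groups are told apart by little, since Cre replicate 10 and Cre-miR122 replicate 4 both had 14 counts (0.693 and 0.677 CPM), with an exact 95% Poisson interval of 7.65 to 23.5 counts, which covers counting error only. Cre replicate 11 had an interval of 46.7 to 78.4 counts and lay 3.95-fold above the mean CPM of the other libraries. The log2 fold change of Derl3 was -1.42 (SE 0.51), and -0.65 without Cre replicate 11. The other derlins stayed near 0, Derl1 at -0.051 (SE 0.072, 95% interval -0.21 to 0.11) and Derl2 at -0.12 (SE 0.099).

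Herpud1, an ER membrane protein that organises the HRD1 complex, is a target of both ATF6 and ATF4. It was at 348, 206 and 315 CPM with Cre-miR122, against 339, 353 and 273 CPM with Cre. Cre-miR122 replicate 2 was the lowest library by far, and the log2 fold change of -0.15 (SE 0.18) turned to 0.041 without it. Edem1, which acts in trimming the sugar chains of misfolded glycoproteins, and Os9, a lectin that binds the trimmed chains, lay at 0.0093 (SE 0.081) and 0.060 (SE 0.086). The 95% interval of Edem1 was -0.17 to 0.19 and that of Os9 -0.13 to 0.25, with overlapping groups for both. Without Cre replicate 11, Edem1 was at -0.046 and Os9 at 0.0043.

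None of the 4 protein entry and glycosylation genes had groups that did not overlap. Sec61a1 and Sec61b encode the channel and a small subunit of the translocon. They had log2 fold changes of -0.058 (SE 0.080) and -0.17 (SE 0.11), the second being -0.10 without Cre replicate 11. Ssr1, a subunit of the translocon-associated protein complex, was at -0.057 (SE 0.091). Stt3a, a catalytic subunit of the oligosaccharyltransferase, was at 0.038 (SE 0.082), with a 95% interval of -0.15 to 0.22, and at -0.013 without Cre replicate 11. Sec61a1 averaged 162 ± 2.94 CPM with Cre-miR122 and 169 ± 11.1 CPM with Cre.

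The promoter elements were set beside the fold changes as a description only, since they were chosen for display with these fold changes known. Of the 11 genes with an exact ERSE or ERSE-II, 10 lay below 0, against 50.6% of all genes, and the median log2 fold change was -0.25. At an unadjusted p under 0.05, 6 were lower, against 2.65% of all genes. All Cre-miR122 libraries lay below all Cre libraries for 8 of these 11, against 5.45% of all genes. Cre replicate 11 was the highest library for each of the 8. Without it, Hspa5 alone of the 6 stayed lower at an unadjusted p under 0.05, against 1.69% of all genes. Dnajb11 was then at -0.16, Creld2 at -0.18, Calr at -0.15, Syvn1 at -0.16 and Derl3 at -0.65, and Canx turned to 0.011. Of the 18 genes whose window held neither, 10 lay below 0, with a median of -0.068. Their groups separated downward for 2 (Pdia3 and Pdia4) and upward for 1 (Ern1), against 5.45% and 5.69% of all genes. Without Cre replicate 11, Edem1, Mbtps2 and Stt3a of these 18 turned below 0 (-0.046, -0.0087 and -0.013). Among the 5 genes with no window, Hyou1 and Manf separated downward and Atf6 upward. The difference between these sets was not tested.

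The rest of the ER machinery was listed from general knowledge, and each list is described by its count and its median. Among 26 other ER folding enzymes, 16 lay below 0 and 10 above, with a median log2 fold change of -0.023. At an unadjusted p under 0.05, 1 of them was lower (Tor1a, -0.24, SE 0.098) and 1 higher (Tmx1, 0.18, SE 0.076). Of all genes tested, 2.65% were lower and 2.76% higher at that threshold. The same shares stand beside the counts of the next lists. Among 20 other degradation genes the median was 0.013, with 2 lower (Selk, -0.27, SE 0.11, and Edem2, -0.19, SE 0.081) and 1 higher (Ube2g2, 0.22, SE 0.087). Of 30 other translocation and glycosylation genes, 22 lay below 0, with a median of -0.066, and 1 was lower (Spcs2, a signal peptidase subunit, -0.22, SE 0.098, and -0.15 without Cre replicate 11). The 20 genes of ER to Golgi transport had a median of -0.0029 and none at an unadjusted p under 0.05. Leaving out single libraries moved these counts to between 0 and 5, with the highest counts in these 4 lists without Cre replicate 12. In that setting 10.5% of all genes were at that threshold in either direction. No gene of these lists passed the test over all genes, where the smallest adjusted p was 0.816.

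Targets of the PERK and ATF4 branch were listed apart from the chaperones. Of 23 tested genes, 14 lay below 0, and the median log2 fold change was -0.084. At an unadjusted p under 0.05, 2 were lower, against 2.65% of all genes. That count was 0 without Cre-miR122 replicate 2 or 4 and 1 without Cre replicate 10 or 11. It was 3 without Cre-miR122 replicate 1 or Cre replicate 12. The share of all genes lower was 2.18%, 1.36%, 2.87%, 1.69%, 3.56% and 5.03% in these settings, in that order. Without Cre replicate 12, 1 gene was also higher. The median ran from -0.20 to -0.019 when single libraries were left out, with the ends reached by dropping Cre-miR122 replicate 2 and Cre-miR122 replicate 4. The 2 genes were Atf5, a transcription factor translated under stress (265 ± 22.7 CPM with Cre-miR122 and 326 ± 56.8 CPM with Cre, -0.30, SE 0.13, and -0.17 without Cre replicate 11), and the hepatokine gene Fgf21. Fgf21 was at 2.89, 2.37 and 1.84 CPM with Cre-miR122, against 4.16, 8.996 and 1.85 CPM with Cre. Its log2 fold change of -1.09 (SE 0.47) was -0.35 without Cre replicate 11, the library with 8.996 CPM. Ddit3, the gene of the stress factor CHOP, lay at -0.50 (SE 0.23), and at -0.30 without Cre replicate 11.

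Heat shock genes of other compartments were looked at as well. The 18 cytosolic heat shock genes had a median log2 fold change of -0.018, with 9 below 0 and 9 above, and the 10 mitochondrial chaperones and proteases one of 0.080, with 7 above 0. Without Cre replicate 11 the cytosolic median was 0.026 and the mitochondrial one -0.00055, with 5 mitochondrial genes above 0 and 5 below. Without Cre replicate 12 the cytosolic median was -0.091. With all 6 libraries none of either list reached an unadjusted p under 0.05. Without Cre-miR122 replicate 1, 2 cytosolic genes were higher at that threshold, against 7.79% of all genes in either direction (617 of 14561 higher). Without Cre replicate 12, 1 cytosolic gene was lower and 1 mitochondrial gene higher. In that setting 10.5% of all genes were at that threshold in either direction (736 lower and 799 higher of 14635). The 5 tested ER-membrane factors of the CREB3 family, among them the liver factor Creb3l3 (-0.050, SE 0.087), had a median of -0.050. Of 9 tested ER-stress death genes, 6 lay above 0, with a median of 0.081 that was 0.039 without Cre replicate 11 or Cre-miR122 replicate 1 and 0.17 without Cre replicate 12. Map3k5, a kinase downstream of IRE1 also known as ASK1, was the 1 gene of that list at an unadjusted p under 0.05 (0.42, SE 0.16). It lay on the higher side, where 2.76% of all genes stood. It was at 33.1, 33.0 and 31.9 CPM with Cre-miR122, against 19.3, 22.2 and 31.9 CPM with Cre, so that Cre replicate 12 nearly met the Cre-miR122 libraries. No gene of the list was higher at that threshold when Cre-miR122 replicate 1, Cre-miR122 replicate 2, Cre replicate 10 or Cre replicate 11 was left out.

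**Figure D5:**
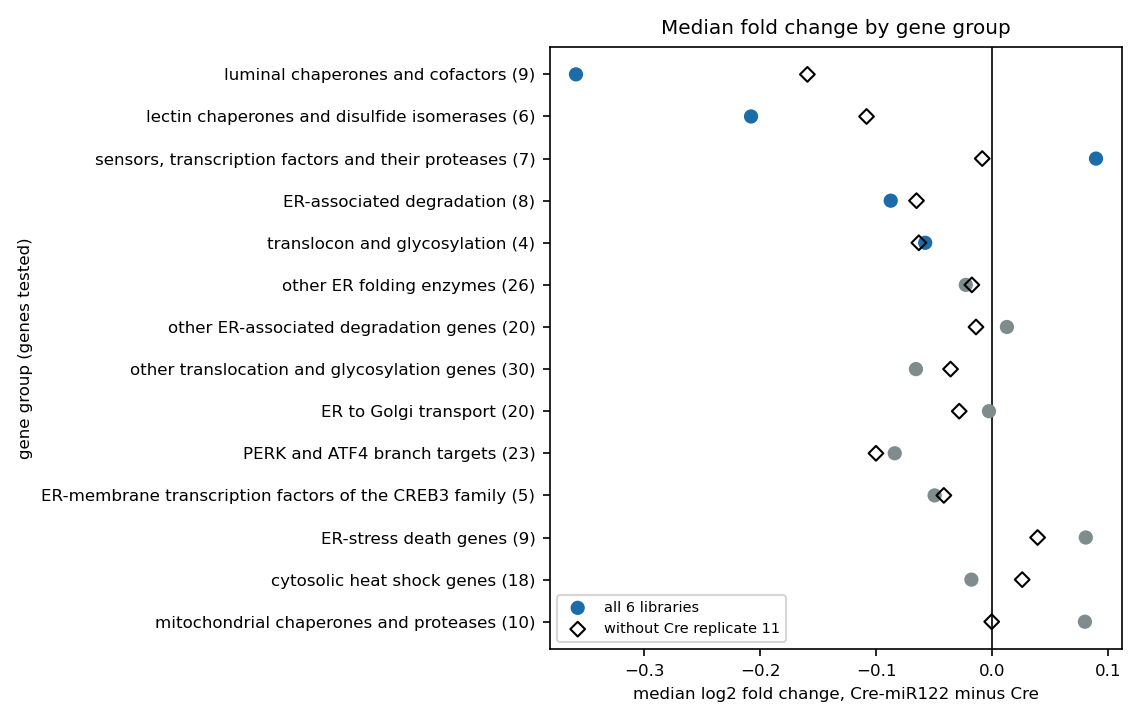
Median log2 fold change, Cre-miR122 minus Cre, of each gene group, with the genes tested in parentheses. Filled circles use all 6 libraries (blue for the 5 roles of the 34 genes, grey for the other lists) and open diamonds leave out Cre replicate 11. The luminal chaperones lie farthest from 0, at -0.36 with all libraries and -0.16 without that one, and the other lists (grey) lie between -0.10 and 0.081.

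Levels per length of transcript spread over a wide range among the 34 genes. In Cre livers they ran from 0.890 CPM per kilobase for Derl3 to 487 CPM per kilobase for P4hb. Calr was at 336 CPM per kilobase with Cre-miR122 and 418 with Cre, Hsp90b1 at 251 and 283, and Hspa5 at 186 and 239, in the same order of groups. The sensor genes were low, with Ern1 at 3.91 and 2.93, Eif2ak3 at 2.91 and 3.33 and Atf6 at 5.96 and 5.34 CPM per kilobase. Exons of 28 of the 34 genes overlapped no other gene of the table, and the overlaps of the other 6 covered at most 5.46% of their exon bases (Derl2, with Mis12).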

How the data were processed

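Mouse liver mRNA was sequenced as 6 libraries, 3 per group, grouped by sample title. The authors deposited whole-number read counts per gene and a gene length. The submitters' processing notes name STAR 2.7.9a, featureCounts 2.0.1 and the GRCm38 (mm10) build. Strandedness and multiply mapping reads: not given in the sources used here. A further 5 columns match no sample of the series and were not used. Total counts per library are given above. Genes were tested with edgeR 4.0.16 in R 4.3.3 (quasi-likelihood F test, TMM scaling, filterByExpr, group alone, two-sided, Benjamini-Hochberg adjusted p under 0.05). Standard errors were derived from the F statistic. CPM used TMM-scaled library sizes, and per-kilobase values the deposited length. DESeq2 1.42.0, limma-voom (limma 3.58.1) and 13 other settings were alternatives, and the tools were tested on simulated data. No label says that the libraries came from separate animals, so p-values reflect only their spread, which may be technical. The members and lists were chosen with earlier results of these data known, so counts over them are descriptions. The genes named are all members and, from each other list of ER or heat shock genes, some of up to 4 genes with the smallest p. Marker genes and the genes outside the set with an element were not picked by that rule.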

Additional observations from a re-analysis of the deposited data

How the results depend on the processing

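No paired analysis was possible because the groups share no replicate numbers. Members called stayed at 0 in all 15 settings. Genes called were 2 without a filter on low counts and 3 with DESeq2. Leaving out single libraries, members at an unadjusted p under 0.05 ran from 4 to 14, while the share of all genes ran from 2.90% to 10.5%, and the members' median log2 fold change ran from -0.21 to -0.080. Signs turned for 8 members. With upper-quartile scaling Dnajc3 was at -0.0094 and Edem1 at -0.0068, with no scaling Dnajc3 at -0.017, Edem1 at -0.0099 and P4hb at -0.0030, and with no filter Canx at 0.0028. Leaving out single libraries, Dnajc3 ran from -0.11 to 0.069, Canx from -0.040 to 0.041, Herpud1 from -0.30 to 0.041, Edem1 from -0.046 to 0.047, Ssr1 from -0.13 to 0.0095, Mbtps2 from -0.0087 to 0.18 and Stt3a from -0.013 to 0.086. The cause was not tested. With 3 libraries a group, 1 library decides several values.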

Other observations

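Genes outside the set that carry an exact ERSE or ERSE-II in the promoter window were looked up after the values of the 34 genes were seen. There were 38 such genes, of which 36 had a row in the count table and 18 were tested. Of these, 11 had a log2 fold change below 0 and 7 above, with a median of -0.017, against -0.25 for the 11 genes of the set with an element. At an unadjusted p under 0.05, 2 were lower with Cre-miR122 and 1 higher, against 2.65% and 2.76% of all genes. Alg12, a mannosyltransferase of the glycan precursor, shares its element with Creld2, at bases 88819520 to 88819538 of chromosome 15 between the 2 genes. It averaged 7.74 ± 0.685 CPM with Cre-miR122 and 10.2 ± 2.28 CPM with Cre (SD, n = 3 each), with a log2 fold change of -0.40 (SE 0.17) and overlapping groups. Zfp57, a zinc finger gene of imprinting, was at 2.54 ± 0.159 CPM with Cre-miR122 and 3.46 ± 0.554 CPM with Cre (-0.45, SE 0.18), and Acacb, an acetyl-CoA carboxylase, at 8.90 ± 3.15 CPM with Cre-miR122 and 6.08 ± 0.5998 CPM with Cre (0.55, SE 0.23). The edgeR adjusted p was 0.816 for each of these 3 genes. Ero1b, the oxidase that recharges the disulfide isomerases, was at -0.13 (SE 0.12) and Krtcap2, an oligosaccharyltransferase subunit, at -0.16 (SE 0.11). The groups overlapped for both. Others of the tested genes lay at 0 or above, such as Nucb1 at -0.00098 (SE 0.090), Rcl1 at 0.00037 (SE 0.076) and Lgalsl at 0.12 (SE 0.12), also with overlapping groups.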
